A study of Mus musculus with 6 samples.

Results

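Core interferon-stimulated genes are the antiviral effector and feedback genes that nearly every cell type switches on when it senses interferon. The set examined here was fixed by name and holds 10 genes: Ifit1, Ifit2, Ifit3, Isg15, Mx1, Mx2, Rsad2, Usp18, Ifi44 and Parp14. A probe belonged to the set when the accession that the array file gives for it matched a RefSeq transcript of a listed gene. That rule found 10 probes for 8 of the 10 genes, among 23462 genes named on the array. No probe matched Mx1 or Mx2, which encode dynamin-like antiviral GTPases, so these genes were not analysed here. Members were listed by gene name, but the list was chosen with earlier results of these data known.

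The arrays measured total RNA of isolated pancreatic acinar cells from mice on a C57BL/6 background. In the control group, called KC (n = 3), Cre recombinase is driven by the pancreatic lineage gene Ptf1a (Ptf1aCre) and activates an oncogenic allele that is silent behind a lox-flanked stop. The second group, called KCS (n = 3), carries the same Ptf1aCre driver and oncogenic allele and is also Setdb1flox/flox, so that the Cre can also delete Setdb1, the gene of an enzyme that methylates lysine 9 of histone H3. Cells that do not come from the Ptf1a lineage keep their unrecombined alleles in both groups. The question of the series is the need for Setdb1 in the formation of pancreatic ductal adenocarcinoma, which this oncogene starts in mice. No label gives the age of the mice, a group without the oncogene, or whether the samples of a group came from separate animals, so p-values measure the spread between these samples, which may be in part technical.

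Type I interferons bind the receptor chains IFNAR1 and IFNAR2, and the kinases JAK1 and TYK2 then phosphorylate transcription factors of the STAT family, among them STAT2. With IRF9, STAT2 is part of the complex ISGF3, which binds the interferon-stimulated response element (ISRE) in the promoters of interferon-stimulated genes. SETDB1 is known from other mouse and human cells for silencing endogenous retroviruses, whose transcripts can be sensed as viral nucleic acid.

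The promoters of the members are shown because ISGF3 acts through the ISRE, though the set itself was fixed by name. RefSeq windows of 250 bases before to 50 bases after a transcription start (build GRCm38.p6) were matched to 6 of the 10 genes, 7 windows in all because Ifit2 has 2 starts. Those of Mx1, Mx2, Usp18 and Parp14 were not used here. The core of the ISRE was searched on both strands as GAAA, any 2 bases and GAAA again, which reads TTTC, 2 bases and TTTC where it lies on the opposite strand. It was present in 4 of the 7 windows, those of Ifit1, Ifit3, Isg15 and Rsad2, against 3.44% of all 32851 windows of the same length. These windows follow, read 5′ to 3′ along the gene, with the matches in capitals.
Ifit1, chr19:34640639-34640938, plus strand: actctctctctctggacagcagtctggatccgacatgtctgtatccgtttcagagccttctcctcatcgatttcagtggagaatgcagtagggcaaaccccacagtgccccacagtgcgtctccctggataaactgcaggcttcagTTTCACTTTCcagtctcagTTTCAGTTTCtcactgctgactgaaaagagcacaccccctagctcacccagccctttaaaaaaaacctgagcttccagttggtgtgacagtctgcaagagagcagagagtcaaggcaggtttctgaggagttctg
Ifit3, chr19:34583279-34583578, plus strand: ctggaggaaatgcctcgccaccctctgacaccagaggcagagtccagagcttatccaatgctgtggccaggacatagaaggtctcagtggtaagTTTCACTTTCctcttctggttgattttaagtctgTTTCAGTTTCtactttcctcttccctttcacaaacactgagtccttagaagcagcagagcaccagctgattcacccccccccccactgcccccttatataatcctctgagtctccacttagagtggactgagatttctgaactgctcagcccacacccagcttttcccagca
Isg15, chr4:156200769-156201068, minus strand: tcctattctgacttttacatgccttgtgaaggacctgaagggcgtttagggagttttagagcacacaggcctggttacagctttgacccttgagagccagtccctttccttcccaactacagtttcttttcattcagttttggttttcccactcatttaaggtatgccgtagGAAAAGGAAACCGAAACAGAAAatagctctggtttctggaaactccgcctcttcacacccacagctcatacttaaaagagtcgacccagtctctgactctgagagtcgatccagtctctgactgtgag
Rsad2, chr12:26456403-26456702, minus strand: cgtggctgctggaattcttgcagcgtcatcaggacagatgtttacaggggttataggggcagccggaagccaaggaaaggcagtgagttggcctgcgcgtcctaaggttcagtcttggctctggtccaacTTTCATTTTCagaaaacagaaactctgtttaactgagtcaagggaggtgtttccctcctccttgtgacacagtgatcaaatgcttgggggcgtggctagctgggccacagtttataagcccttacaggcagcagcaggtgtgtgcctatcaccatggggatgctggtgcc
In the Isg15 window 3 matches overlap in one run, which starts at -78 from the transcription start. Ifit1 has 2 separate matches, starting at -104 and -85, and Ifit3 has 2, starting at -156 and -122. The match of Rsad2 starts at -120. The shorter motif TTCNNNGAA, the core of the gamma-activated sequence, was in 8.30% of all windows and in 1 of these 7, the upstream window of Ifit2. A match is only a run of letters, and the windows of Ifit2 and Ifi44 without an ISRE core match say nothing about sites elsewhere.

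Signals are given as the log2 of the processed signal relative to the 75th percentile of its own array (scaled log2 signal). The arrays of the 2 groups differed as a whole. In scanner units, the 75th percentile lay between 61.2 and 68.6 for KC and between 347 and 423 for KCS, and 26550 to 27237 against 35366 to 35920 of 56605 probes were well above background. Setdb1 itself had a scaled log2 signal of -0.91, -1.05 and -0.32 in KC and -0.28, -0.44 and -0.55 in KCS (0.33 ± 0.24, limma adjusted p = 0.270, and 0.69 with adjusted p = 0.0443 under median centring), and where its probe lies relative to the loxP sites is not known here, so this checks nothing about the genotype. All 15 acinar markers were lower in KCS, where their summed signal was 3.79, 19.2 and 2369 times the 75th percentile in replicates 1, 2 and 3, against 36994 to 43874 times on KC arrays. The acinar markers that define the labelled cell type were thus far below KC on all 3 KCS arrays, and lowest in replicates 1 and 2. In bulk samples such as these, fewer cells of a type and less RNA per cell cannot be told apart.

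All 8 measured members were higher in KCS, and for each of them all 3 KCS arrays lay above all 3 KC arrays. Over the 27102 rows tested (each a named gene or a probe without a name here), 25.9% were called higher and 34.4% lower at a limma adjusted p below 0.05, and in 29.8% every KCS array lay above every KC array and in 38.4% below. The median log2 fold change of the members was 2.06, beside -0.19 over all rows. The members' adjusted p-values ran from 0.000205 for Parp14 to 0.0142 for Rsad2. Of all calls 42.9% were higher, and this share was 56.5% when arrays were centred on their medians, 96.8% when they were scaled to spike-in controls and 31.3% after normexp background correction.

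**Figure D1:**
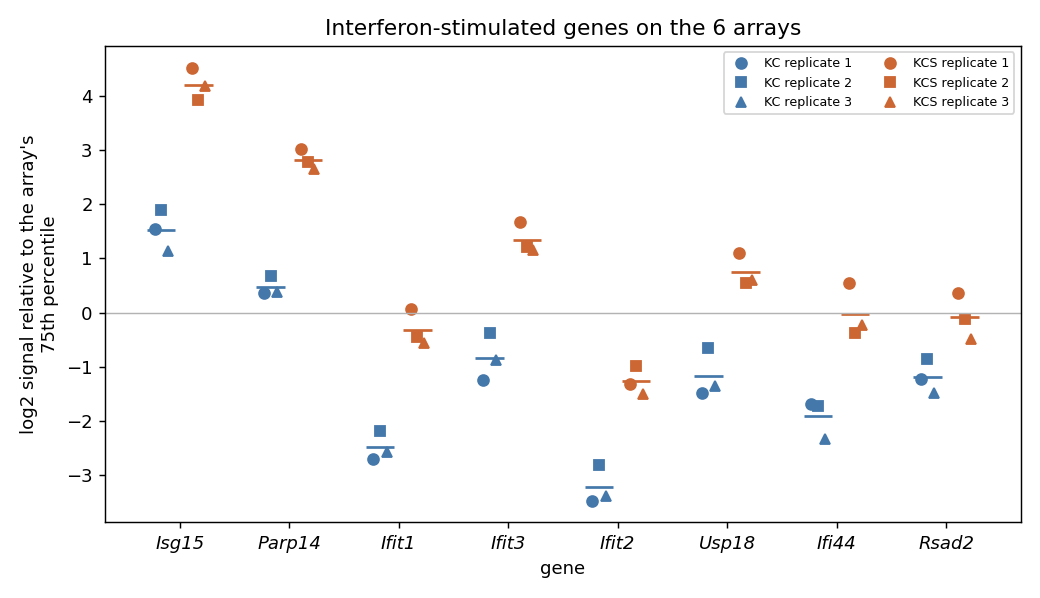
Scaled log2 signal (log2 relative to the array's 75th percentile) of the 8 measured genes, in order of their fold change, on each of the 3 KC (blue) and 3 KCS (orange) arrays, with horizontal bars at group means. The KCS points lie above the KC points for every gene, from Isg15 (means 1.53 and 4.21) to Rsad2 (means -1.19 and -0.08).

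The IFIT proteins are cytoplasmic RNA-binding proteins with tetratricopeptide repeats that block translation of viral RNA. Ifit1, whose product recognises RNA without the methylated cap of host messages, had a scaled log2 signal of -2.70, -2.19 and -2.58 on the KC arrays and 0.06, -0.45 and -0.55 on the KCS arrays. The groups did not overlap, and the 2.17 ± 0.25 (SE, n = 3 per group) rise on the log2 scale is a 4.51-fold difference (limma adjusted p = 0.000577). Ifit3, whose human counterpart binds and stabilises IFIT1, gave -1.25, -0.37 and -0.87 in KC and 1.68, 1.20 and 1.15 in KCS. Its change, 2.17 ± 0.28, was 4.51-fold as well (adjusted p = 0.000969). Ifit2, an RNA-binding relative that limits viral replication in mouse tissues, gave -3.47, -2.81 and -3.39 in KC and -1.32, -0.98 and -1.51 in KCS. It rose by 1.95 ± 0.25 (3.87-fold, adjusted p = 0.000957), but only 1 of its 3 KC arrays was well above background, so its KC level lies close to the floor of the measurement.

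The 3 IFIT genes lie in one cluster on chromosome 19, with close copies between them. The probe of the copy Ifit3b, which may share signal with that of Ifit3, gave -2.64, -1.97 and -2.85 in KC and -0.07, -0.53 and -0.77 in KCS, a rise of 2.03 ± 0.30 (adjusted p = 0.00168). The copy Ifit1bl1 did not exceed background clearly on any of the KC arrays, so it has no usable fold, and its fitted difference was positive here (adjusted p = 0.0112) but -1.14 after normexp correction (adjusted p = 0.000255). Ifit1bl2, the copy next to Ifit1, was at 0.17 ± 0.38 (adjusted p = 0.711), with groups that overlapped. Ifi44l, which lies next to Ifi44, was not well above background on any array.

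Isg15 encodes a ubiquitin-like protein that is attached to other proteins and also secreted, and Usp18 encodes the protease that takes it off again and that also dampens signalling at the receptor chain IFNAR2. Isg15 gave 1.54, 1.90 and 1.14 in KC and 4.52, 3.92 and 4.18 in KCS. It rose by 2.68 ± 0.27, or 6.41-fold (adjusted p = 0.000382), the largest fitted change among the 8 genes. Usp18 gave -1.48, -0.65 and -1.36 in KC and 1.09, 0.55 and 0.60 in KCS. The rise of 1.91 ± 0.29 was 3.77-fold (adjusted p = 0.00173), so the modifier and its protease were raised together. The enzymes that attach ISG15 were mostly higher too. Uba7, which encodes its activating enzyme, went from 0.50, 0.49 and 0.44 to 2.72, 2.80 and 2.84, a rise of 2.31 ± 0.16 (adjusted p = 0.000129). Ube2l6, the conjugating enzyme, rose by 1.59 ± 0.21 (adjusted p = 0.00112). For the mouse ligase gene Herc6, 0 of 3 KC arrays were well above background. Its KCS signal was at least 1.17-fold that of KC (adjusted p = 0.00531), though its fitted change was negative after normexp correction. Trim25, which encodes a second ligase for ISG15, was at -0.21 ± 0.21 (adjusted p = 0.423).

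Rsad2 encodes viperin, a radical SAM enzyme that makes a chain-terminating nucleotide against viral polymerases. Its brighter probe gave -1.23, -0.86 and -1.48 in KC and 0.37, -0.12 and -0.48 in KCS. The groups lay close to each other, and the rise of 1.11 ± 0.28 (2.16-fold, adjusted p = 0.0142) had the smallest size and the largest p among the 8 genes. Its second probe was dim (well above background on 0 of 3 KC arrays) and gave -5.26, -4.35 and -3.68 in KC and -3.23, -3.37 and -3.54 in KCS, with no usable fold (adjusted p = 0.0574 with every probe tested on its own). The call of Rsad2 was lost on the second slide alone (adjusted p = 0.0744) and after normexp correction (0.42, adjusted p = 0.0559). Cmpk2, the nucleotide kinase gene next to Rsad2, whose product makes the substrate of viperin, was lower: it gave -0.58, -0.12 and -0.29 in KC and -1.22, -1.35 and -1.11 in KCS, a change of -0.90 ± 0.19 (adjusted p = 0.00738). Cmpk2 was lower with each array left out in turn (adjusted p up to 0.0343) and with median centring (-0.54, adjusted p = 0.0400), while with spike-in scaling it was at 1.98, below the 2.69 of all rows.

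Ifi44 encodes a microtubule-associated protein that is widely used as an interferon readout. It gave -1.69, -1.72 and -2.34 in KC and 0.55, -0.38 and -0.24 in KCS, a rise of 1.89 ± 0.32 (3.72-fold, adjusted p = 0.00278). Parp14 encodes a mono-ADP-ribosyltransferase, one of the interferon-induced enzymes of that family. It gave 0.36, 0.67 and 0.38 in KC and 3.01, 2.79 and 2.65 in KCS, so that the spread within each group was small beside the gap between them. The rise of 2.35 ± 0.19 was 5.10-fold (adjusted p = 0.000205), and the second probe of Parp14 rose by 1.67 ± 0.23 (adjusted p = 0.00108). Its neighbours on chromosome 16, Dtx3l and Parp9, which encode partners in one ubiquitin ligase complex, rose as well, by 2.21 ± 0.25 and 1.68 ± 0.27.

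The 2 slides each held arrays of both groups: the first held replicate 1 of each, the second held replicates 2 and 3. All 8 genes were higher in KCS on both slides, with a median of 2.62 on the first and 1.83 on the second. For each of the 8 genes the difference on the first slide was the larger, from 1.60 for Rsad2 to 2.99 for Isg15, against 0.87 for Rsad2 to 2.53 for Isg15 on the second. With the slide as a block, adjusted p-values ran from 0.000389 to 0.0157 and the 8 calls stood. With 1 pair of arrays on the first slide, the difference between slides was not tested.

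**Figure D2:**
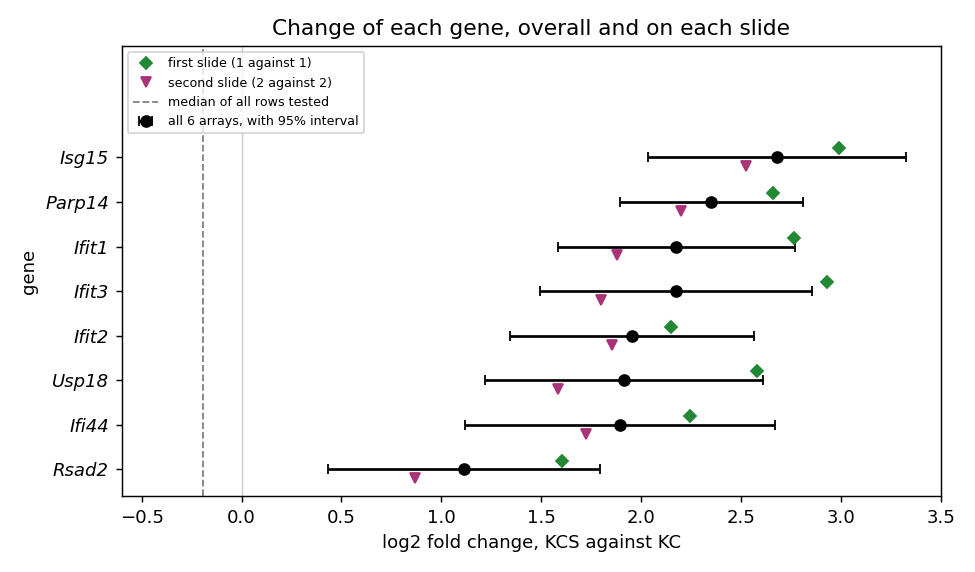
Log2 fold change of each gene in KCS against KC (x axis) over all 6 arrays (black, with 95% intervals), on the first slide (green, 1 array against 1) and on the second slide (purple, 2 against 2), with the median of all rows tested (-0.19) as a dashed line. The intervals of all 8 genes lie above 0, the lowest starting at 0.43 for Rsad2, and every green diamond lies to the right of its purple triangle.

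Within the groups the members tended to deviate in the same array. KCS replicate 1 was the highest KCS array for 7 of the 8 genes, all but Ifit2, and KC replicate 2 the highest KC array for 7 of the 8, all but Ifi44. The median deviation from the gene's group mean was 0.34 on KCS replicate 1 and 0.35 on KC replicate 2, and lay between -0.20 and -0.14 on the other arrays. The 6 leukocyte markers were Ptprc, Laptm5, Coro1a, Cd52, Tyrobp and Fcer1g, not all of which are made by every leukocyte type. Their summed signal had the same order at the top as the members: it was highest in KCS replicate 1 (340 times the 75th percentile, against 264 and 183) and in KC replicate 2 (16.8, against 11.5 and 8.53). The fibroblast and stellate cell markers had the same top arrays (1415 in KCS replicate 1 and 274 in KC replicate 2). So did the conventional dendritic cell markers. The macrophage markers were highest in KCS replicate 1 (575) and in KC replicate 3 (89.6, against 89.2 in KC replicate 2). Of these only Itgam, which was not called, was highest in KC replicate 3 (scaled log2 signal 5.95, against 4.45 and 5.50). Endothelial, T and NK and B cell markers were highest in replicate 1 of both groups, neutrophil markers in replicate 3 of both. Plasmacytoid dendritic cell markers were highest in KCS replicate 1 and KC replicate 3, and ductal markers in KCS replicate 3 and KC replicate 2. The part of these cells in the members' order was not tested.

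Because the 75th percentile itself differed between the groups, the members were set against all rows under each scaling. Their median log2 fold change was 2.18 beside -0.01 over all rows with quantile normalization, 2.42 beside 0.16 with median centring and 4.94 beside 2.69 with spike-in scaling, and all 8 were called higher each time. The distance between the members' median and that of all rows was 2.26 with the 75th percentile, the median or the spike-in controls as the reference, since these shift every row of an array alike. After normexp correction with an offset of 50 scanner units, which is close to the 75th percentile of a KC array and compresses dim KC signals, the median was 0.89 beside -0.61, 6 genes were called higher, and Ifit2 was at -0.032 (adjusted p = 0.811).

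**Figure D3:**
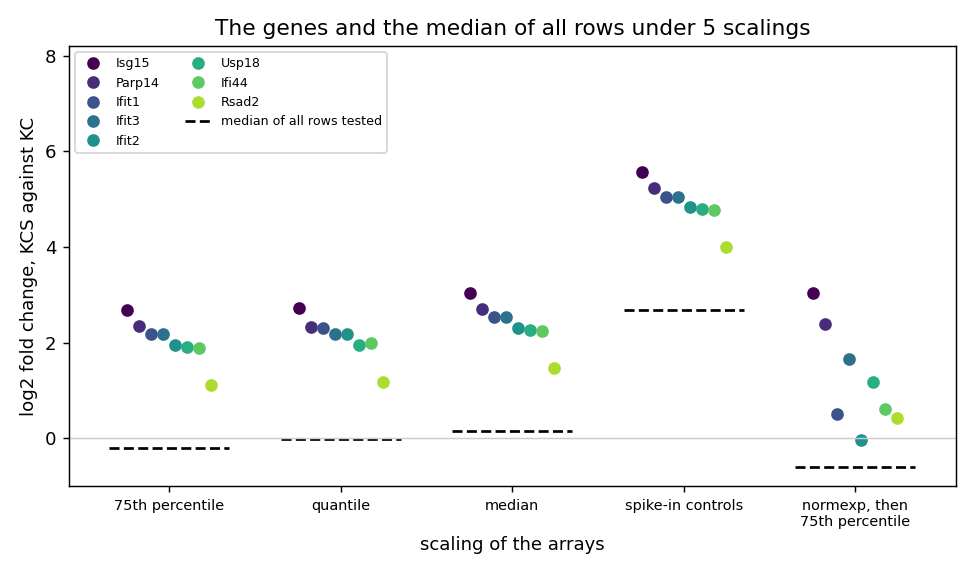
Log2 fold change in KCS against KC (y axis) of the 8 genes (coloured points) and the median of all rows tested (dashed) under 5 ways of scaling the arrays (x axis). All 8 genes lie above the dashed median each time, while their distance from 0 moves with the scaling, from a median of 0.89 after normexp to 4.94 with spike-in controls, and Ifit2 lies at -0.032 after normexp.

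The other genes of the interferon response were taken by role, from ligand to target. Of 21 listed ligand genes 18 had a probe and 8 could be tested: none was higher and 3 were lower (median -0.86), beside 34.4% lower over all rows. The ligand count turned with the scaling: 1 was lower with quantile normalization or median centring, 7 were higher and 1 lower with spike-in scaling, and all 8 were lower after normexp correction. Ifnb1, Ifng and Ifne were well above background on fewer than 3 arrays and were not tested, and Ifna4, Ifna7, Ifna12, Ifna15 and Ifna16 were well above background on none. Ifna9 gave 6.61, 5.91 and 6.21 in KC and -4.07, -4.76 and -1.24 in KCS, a change of -9.60 ± 0.87 (adjusted p = 0.000282), and it was lower under spike-in scaling too (-6.72). KCS replicate 3, the highest KCS array for Ifna9, was also the highest for the acinar markers, and Ifna genes are close copies whose probes can share signal. The part of acinar RNA in the Ifna9 signal was not tested. Ifna5 passed the test as lower (adjusted p = 0.0343), but 0 of its 3 KC arrays were well above background, so no size is given, and the call was lost when any of 5 arrays was left out (adjusted p of 0.104 at most, without KCS replicate 2). Ifnab (-0.97, adjusted p = 0.0426) lost its call when any of 4 arrays was left out, with 0.132 at most when this was KCS replicate 2. Under spike-in scaling Ifnab was at 1.91, beside 2.69 over all rows. Ifnl3 was at -1.09 (adjusted p = 0.0690) and Ifna14 at -0.75 (adjusted p = 0.160).

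Of 9 receptor and kinase genes, 7 were higher and 1 lower (median 1.30). Ifnar2 rose by 1.40 ± 0.18 (adjusted p = 0.000899), and the interferon-gamma receptor genes Ifngr1 and Ifngr2 by 1.53 and 1.77. The kinase genes Jak2 and Tyk2 rose by 2.29 and 1.30. Ifnar1 was the lower one, and its probes disagreed. The brightest gave 3.20, 4.54 and 4.72 in KC and 1.97, 2.42 and 3.32 in KCS, groups that overlap. Its change was -1.58 ± 0.51 (adjusted p = 0.0351), and 1.30 under spike-in scaling, beside 2.69 over all rows. The call was lost on leaving out any of 4 arrays, with 0.108 at most when KC replicate 3 was left out. A second Ifnar1 probe rose by 1.69 (adjusted p = 0.00142), and the last, with 0 of 3 KC arrays well above background, was higher (adjusted p = 0.00655, no size given). No direction can be given for Ifnar1 as a gene.

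Of 9 transcription factor genes, 7 were higher and none lower (median 1.81). Irf7, the factor that amplifies interferon production and is itself interferon-induced, gave 1.97, 2.69 and 2.01 in KC and 5.06, 4.45 and 4.76 in KCS, a rise of 2.53 ± 0.27 (adjusted p = 0.000499). The Irf7 groups did not overlap. Irf9, the DNA-binding subunit of ISGF3, rose by 1.49 ± 0.24 (adjusted p = 0.00217). Stat2 rose by 1.49 ± 0.19 (adjusted p = 0.000824) by its brighter probe, but its dimmer probe was at -1.77 (adjusted p = 0.00394, every probe tested on its own). The myeloid factors Irf8 and Irf5 rose by 4.67 ± 0.24 and 4.06 ± 0.35. Irf3, which is present before infection and acts downstream of nucleic acid sensors, was at -0.45 ± 0.18 (adjusted p = 0.0718). Under spike-in scaling Irf3 was at 2.43, beside 2.69 over all rows. Among 10 inhibitors of interferon signalling, 6 were higher and 1 lower (median 0.72). The feedback inhibitors Socs3 and Socs1 rose by 3.60 ± 0.21 and 2.85 ± 0.42, and the phosphatase genes Ptpn1, Ptpn6 and Ptpn11 by 2.16, 2.07 and 0.76 by their brightest probes. With every probe tested on its own, the other Ptpn11 probe was at -0.11 (adjusted p = 0.610). Of the dimmer Ptpn6 probes, one was at 0.09 (adjusted p = 0.738) and another at 2.43 (adjusted p = 0.000269). The other Ptpn1 probe rose by 2.44. Pias2 was lower by its brightest probe (-0.70, adjusted p = 0.0221). This call ended when any of 4 arrays was left out (KCS replicate 3 gave the highest adjusted p, 0.0675). It reversed under spike-in scaling (2.18), where the median of all rows was 2.69.

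**Figure D4:**
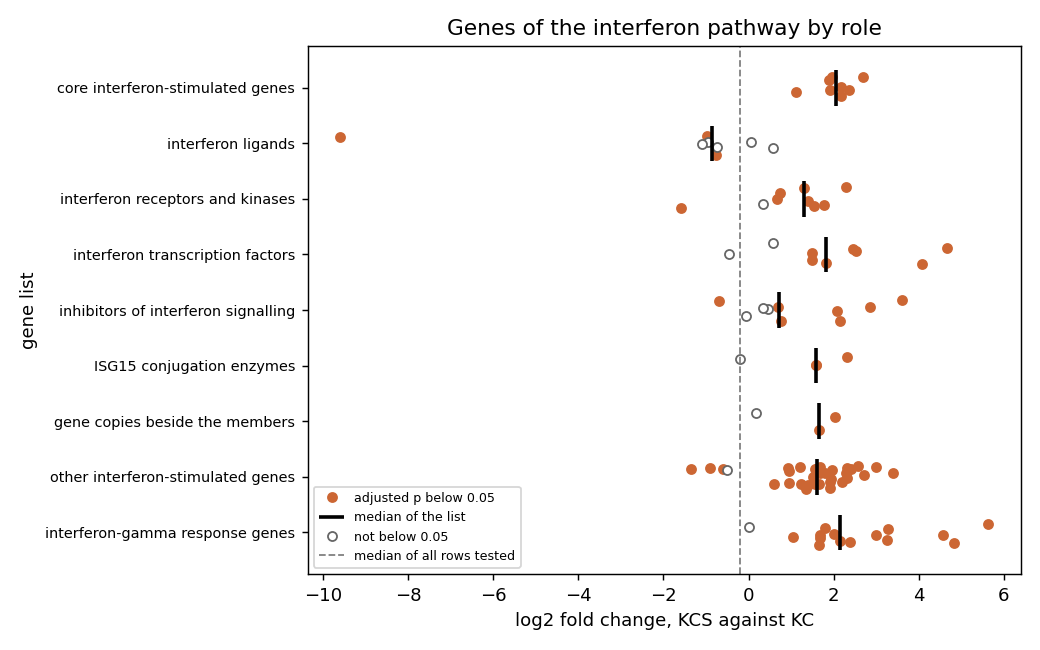
Log2 fold change in KCS against KC (x axis) of every tested gene of the members and of 8 lists of interferon pathway genes (rows), filled where the limma adjusted p was below 0.05, with list medians as black bars and the median of all rows tested as a dashed line. The members span 1.11 to 2.68, the ligand list has a median of -0.86 with Ifna9 at -9.60, and the other 7 lists have medians from 0.72 to 2.15.

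Of 36 other interferon-stimulated genes, 34 had a probe and all 34 were tested: 30 were higher, 3 lower and 1 not called (median 1.61). The 5 with the smallest p were Tor3a (2.72 ± 0.19), the chaperone gene Rtp4 (2.32 ± 0.20), the secreted glycoprotein gene Lgals3bp (2.32 ± 0.21), the nucleic acid sensor gene Zbp1 (2.58 ± 0.24) and the DNA sensor family gene Ifi204 (2.29 ± 0.21). The 3 lower genes were Cmpk2, Isg20 and Ms4a4c. Isg20, an exonuclease gene, was at -0.59 ± 0.19 (adjusted p = 0.0312), which missed the threshold when any of 5 arrays was left out (KCS replicate 2 gave the highest adjusted p, 0.114) and under median centring (adjusted p = 0.304). Ms4a4c, a membrane protein gene of leukocytes, was at -1.36 ± 0.27 (adjusted p = 0.00525) but at -0.12 with quantile normalization (adjusted p = 0.723). Isg20 and Ms4a4c reversed under spike-in scaling (2.29 and 1.52), where both stayed below the 2.69 of all rows. Ifi27 was at -0.51 ± 0.22 (adjusted p = 0.0925) and at 2.37 with spike-in scaling, also below the 2.69 of all rows.

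Of 15 tested genes that respond most to interferon-gamma, 14 were higher and none lower (median 2.15). For Cxcl9, a T cell chemokine gene, 0 of 3 KC arrays were well above background. Its KCS signal was at least 5.83-fold that of KC (adjusted p = 0.000122). The GTPase genes Ifi47, Igtp and Irgm2 rose by 3.27 ± 0.28, 2.37 ± 0.24 and 2.01 ± 0.23. Ciita, the master regulator of MHC class II, rose by 4.58 ± 0.60 (adjusted p = 0.000978). Nos2 was at 0.00 ± 0.33, with overlapping groups. The members were thus one part of a wider set of interferon-responsive genes with higher signals, and the difference between the members and these lists was not tested.

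Markers of other cell types differed between the groups beside the members. All 6 leukocyte markers were higher in KCS, with a summed signal of 8.53 to 16.8 times the 75th percentile in KC and 183 to 340 times in KCS, and a median log2 fold change of 4.38. Of 12 macrophage markers 11 were higher and 1 not called (median 3.95, summed 66.0 to 89.6 against 450 to 575), of 9 fibroblast and stellate cell markers all 9 (median 3.11, 204 to 274 against 1137 to 1415), and of 6 endothelial markers 5 (median 1.17, 9.50 to 10.7 against 21.4 to 34.3). Plasmacytoid dendritic cells, which make interferon in bulk, were represented by 6 markers, of which 1 was higher and 2 lower (median 0.60, summed 339 to 371 against 92.0 to 142). The 2 lower ones, Siglech and Pacsin1, were at 1.09 (adjusted p = 0.00657) and 1.12 (adjusted p = 0.0668) under spike-in scaling, beside 2.69 over all rows. A dimmer Pacsin1 probe, with 0 of 3 KC arrays well above background, was higher (adjusted p = 0.00135 with every probe tested on its own). Conventional dendritic cell markers gave 3 higher of 5 tested (0.363 to 0.460 against 6.37 to 42.7), with Xcr1 not well above background on any array. Itgax, with scaled log2 signals of 5.39, 4.74 and 2.23 in KCS, made up most of the KCS sum. The other higher ones, Clec9a and Flt3, had 0 of 3 KC arrays well above background. Clec9a has no usable fold. The KCS signal of Flt3 was at least 1.96-fold that of KC, but its fitted change was -0.47 after normexp correction (adjusted p = 0.0110). T and NK cell markers gave 3 higher and 3 lower of 7 tested (10.6 to 20.8 against 3.1 to 8.93), with Ncr1 not well above background on any array. The 3 higher ones, Cd3g, Klrb1c and Gzmb, had 0 of 3 KC arrays well above background. Their KCS signal was at least 2.01-fold that of KC for Cd3g and 1.36-fold for Klrb1c, and Gzmb has no usable fold. B cell markers gave 1 higher and 1 lower of 5 (0.449 to 0.666 against 0.680 to 2.46), and neutrophil markers 4 higher and 1 lower of 7 (147 to 245 against 97.4 to 111). Ductal markers gave 4 higher and 1 lower of 8 (55.4 to 75.5 against 273 to 354). Under spike-in scaling the lower T and NK markers Cd3e, Cd3d and Cd4 were at 0.71, 0.97 and 1.36. The lower markers Pax5 (B cell), Csf3r (neutrophil) and Muc1 (ductal) were then at 0.41, 1.65 and 0.38, beside 2.69 over all rows. A dimmer Cd3d probe, with 0 of 3 KC arrays well above background, was higher (adjusted p = 0.00107 with every probe tested on its own). The other Cd3e probe was lower (-4.66, adjusted p = 0.000625). Bright markers weigh most in summed signals. Csf3r was the brightest neutrophil marker, with mean scaled log2 signals of 7.57 in KC and 6.33 in KCS. The lower neutrophil sum reflects mainly Csf3r, since S100a8, S100a9, Cxcr2 and Ly6g were higher. Siglech was the brightest plasmacytoid marker (8.21 and 6.43). The members' median rise of 2.06 was below the medians of the leukocyte, macrophage and fibroblast lists and of the neutrophil (2.76) and ductal (2.33) lists, and above those of the endothelial, plasmacytoid and conventional dendritic (1.99), T and NK (0.95) and B cell (0.91) lists. The part of these cells in the members' signal was not tested, and with 1 RNA pool per sample, more responding cells and more transcript per cell cannot be told apart.

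Genes with a profile like that of the members were sought only outside the members and all lists. The lists are not complete, so such genes, Sp140 and Rbm43 below among them, may still respond to interferon. Among 16077 other tested genes, the 5 whose values over the 6 arrays lay nearest to the mean profile of the members, each centred on its own mean, were Tns3 (Euclidean distance 0.168 on the log2 scale), Hexa (0.175), Sp140 (0.202), Daglb (0.212) and Rbm43 (0.235). Hexa, a lysosomal hexosaminidase gene, had the same high arrays as the members, with 2.55, 3.06 and 2.30 in KC and 5.01, 4.51 and 4.41 in KCS. With 6 arrays in 2 groups that differ in most rows, such likeness is a description only.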

How the data were processed

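Per the labels' protocols, total RNA was column-purified, amplified and labelled with Cy3. Per the file headers, the authors read 6 one-colour arrays with Agilent Feature Extraction 12.0.3.1, whose processed signal is a background-corrected intensity. The deposited value table holds log2 values. They matched the scaled log2 signals with outlier spots kept, after subtraction of each probe's median across arrays (r of 0.999999 or above over 36110 probes), so scale, centring and direction are known. Column medians were -0.01, 0.05 and 0.10 (KC) and -0.05, -0.03 and -0.04 (KCS).

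Spots of a probe were averaged without marked outliers (88 to 140 per array, no spot was saturated), and log2 signals were scaled to each array's 75th percentile over non-control probes. Tests took the probes that 3 or more of 6 arrays marked as well above background. Accessions were matched without version to RefSeq (GRCm38.p6), which named 33767 of 56605 probes. The array files name another build, so no probe coordinates are given, and those of the promoter windows are RefSeq's. The brightest tested probe stood for a gene. KCS was compared with KC by limma 3.58.1 in R 4.3.3 (lmFit, eBayes, no covariates, two-sided, Benjamini-Hochberg over 27102 rows, threshold 0.05), and all adjusted p-values are from it. A fold given as at least N sets the brighter group against the lowest signal well above background. List genes were described by counts and medians, without a set test. Summed signals are sums of linear scaled signals over tested markers.

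The members, lists and rules were chosen with earlier results of these data known. Named were all members, up to 5 genes with the smallest p in each pathway list, some core pathway genes whatever their result, and 5 genes of like profile. Some genes that this rule selects are not reported here. Cmpk2, Isg20, Ms4a4c, Ifi27, Dtx3l, Parp9, Pias2 and Nos2 were picked after their values were seen. The steps were tested on simulated data. The number of arrays limits the precision. Figures used matplotlib 3.10.9 in Python 3.11.15. The closing section gives the alternatives.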

Additional observations from a re-analysis of the deposited data

How the results depend on the processing

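All 8 genes were called higher under quantile normalization, median centring, spike-in scaling, the deposited value table, no filter on dim probes, the mean of a gene's probes, array weights, retained outlier spots, eBayes with trend and robust options, the slide block and each array left out in turn. With probes well above background on all 6 arrays 7 could be tested and 7 were higher, 7 were higher on the second slide alone (all but Rsad2) and at a threshold of 0.01, and 9 of 10 probes were higher when each was tested on its own. Normexp was run on median signals after the data were seen, since the files hold no mean signals. It gave 6 of 8, a median of 0.89 and an Ifit2 log2 fold change of -0.032 (reversed). The median was 4.94 with spike-in scaling, 2.62 on the first slide, and 1.98 to 2.25 with single arrays left out. Over all rows, 23628 were higher and 788 lower with spike-in scaling, against 7016 and 9329, and 14896 were lower after normexp and 24768 without the filter. Over the 8 pathway lists 69 genes were higher and 8 lower. The lower count was 5 with quantile normalization, 3 with median centring, 1 with spike-in scaling, 15 after normexp, 14 without the filter and 3 at a threshold of 0.01. With single arrays left out it was 3 (KC replicate 2), 4 (KCS replicate 2), 5 (KC replicate 3 or KCS replicate 3) or 6 (KC replicate 1 or KCS replicate 1). The normexp offset compresses dim signals and dropping the filter adds dim probes, and other causes were not tested.

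Replicate numbers were not taken to pair the samples: deviations of same-numbered arrays correlated at 0.33, 0.04 and 0.14, and KCS replicate 2 correlated best with KC replicate 3. With the replicate block 8 members were higher, with 6871 rows higher and 9581 lower over all. Signal over background limits Ifit2, Herc6, Ifit1bl1, Cxcl9, Ifna5 and the second Rsad2 probe, which were dim on most or all KC arrays.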
